A study of Homo sapiens with 6 samples.

Results

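The HOX genes are the 39 protein-coding genes of the HOXA, HOXB, HOXC and HOXD clusters, taken from the deposited table as rows of that biotype whose symbol is HOX, a cluster letter from A to D and a number. All 39 were found among the 58938 entries of the table. The clusters lie on chromosomes 7 (HOXA, 11 genes), 17 (HOXB, 10 genes), 12 (HOXC, 9 genes) and 2 (HOXD, 9 genes), and coordinates are on GRCh38, where all 39 have the positions of GENCODE 29. The cells were HCT116, an established human colorectal cancer line. RNA sequencing was done on 3 libraries from cells given a vector (genotype WT in the labels) and 3 libraries from cells given a plasmid for overexpression of MST3, the serine/threonine kinase that STK24 encodes. Per the labels, cells at 60% density received the plasmid by lipofection, with new medium at 6 hours and RNA extraction at 30 hours. The labels name no promoter for the plasmid and do not say whether replicates 1 to 3 were separate cultures, so the p-values speak only of the spread among these 6 libraries, which may be technical.

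HOX proteins are transcription factors that bind DNA through a homeodomain. Within a cluster the genes stand in the order in which they are expressed along the body axis, from low numbers at the anterior end to high numbers at the posterior end, and genes of the same number in different clusters are paralogues. They bind DNA together with TALE homeodomain partners such as PBX and MEIS, and their on and off states are kept by Trithorax and Polycomb proteins. In the gut they mark position along the tube, and the posterior members are known for the hindgut and colon.

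The libraries held 15289213 to 17708029 reads on genes, recovered from FPKM (fragments per kilobase of gene and unit of depth, the unit of the deposited values). STK24 stood at 17.1, 17.4 and 17.4 FPKM with vector and at 63.7, 72.2 and 76.0 FPKM with MST3, higher in all 3 libraries labelled as overexpressing it. MST3 replicate 1 had reads on 27442 genes, against 25099 to 25501 in the other 5 libraries. The 7 epithelial markers were all above 1 FPKM (KRT19, a keratin of simple epithelia, highest at a mean of 957 FPKM), with a summed level of 1697 to 1749 FPKM with vector and 1619 to 2048 in MST3 libraries. Of 5 intestinal markers only CDX2 passed 1 FPKM, at 3.33, and CDX1 was listed at 0, while the leukocyte marker PTPRC and the endothelial marker CDH5 had 0.00209 and 0.0111 FPKM. Among 5 fibroblast markers COL1A1 had 4.25 FPKM and the other 4 were under 0.1.

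HCT116 expressed HOX genes of all 4 clusters, and the level was uneven between and within them. A mean of at least 1 FPKM over the 6 libraries was reached by 21 of the 39 members (53.9%), close to the 54.5% of all protein-coding genes that did so. These 21 comprised 8 of 11 HOXA genes, 8 of 10 HOXB genes, 4 of 9 HOXC genes and 1 of 9 HOXD genes. Another 7 members lay between 0.1 and 1 FPKM and 11 were under 0.1 FPKM, of which 8 were HOXD genes. As a group, HOX mRNAs were on the low side among expressed genes, with a median of 3.42 FPKM over the 21 members. The median over the protein-coding genes that reached 1 FPKM was 7.14 FPKM. HOXB genes made up 59.2 to 62.1% of the summed HOX FPKM of a library, HOXA genes 26.4 to 28.3%, HOXC genes 8.69 to 10.8% and HOXD genes 2.31 to 2.83%. By position, paralogues 4 to 8 gave a mean of 54.9% of the sum, paralogues 9 to 13 gave 39.6% and paralogues 1 to 3 gave 5.56%. In bulk RNA, fewer cells with a transcript and less of it per cell cannot be told apart.

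**Figure D1:**
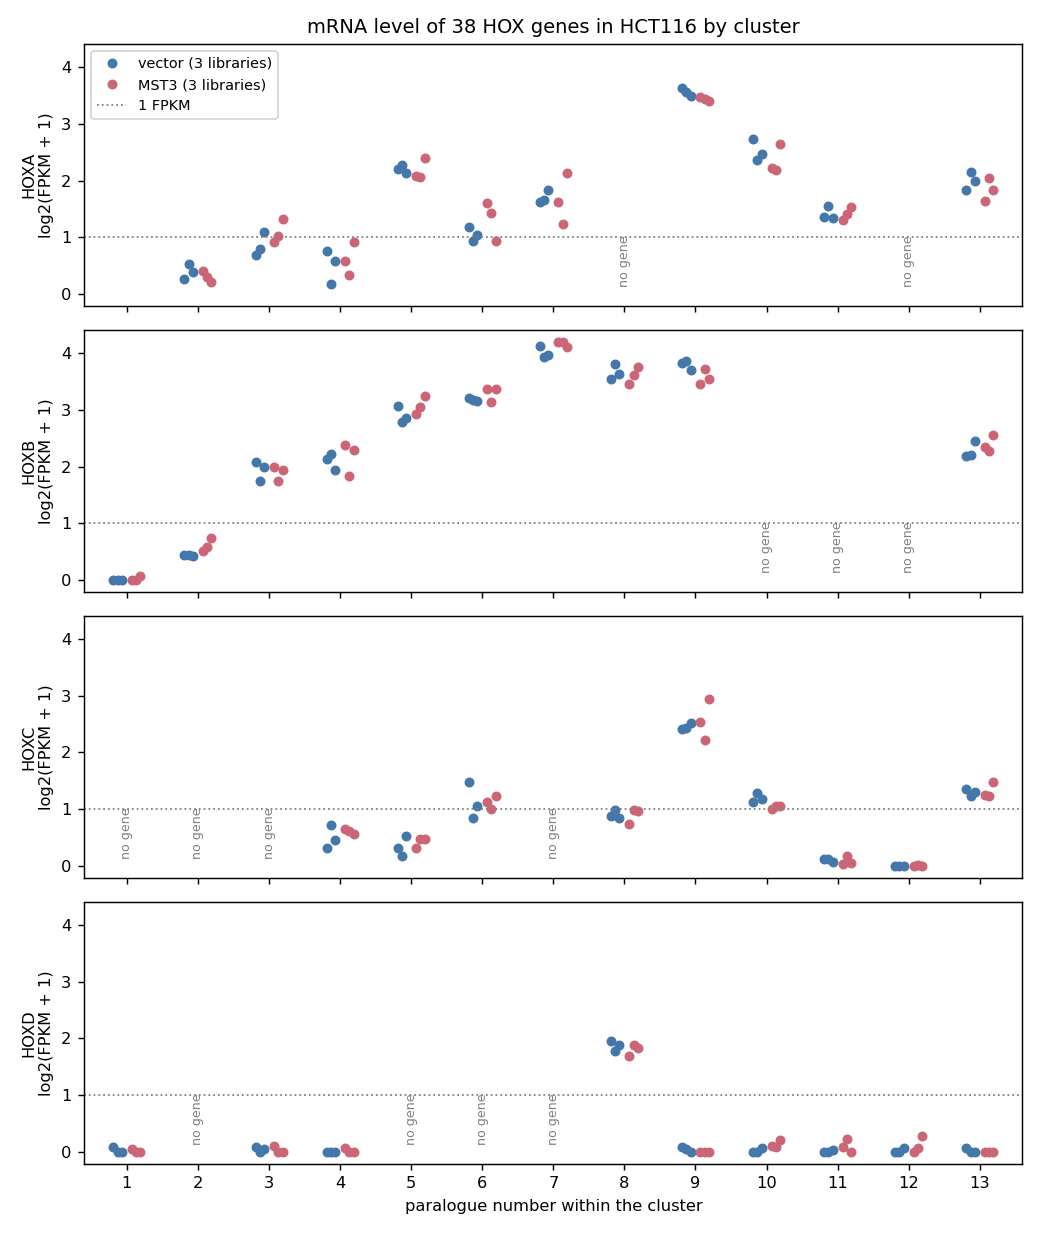
mRNA level of 38 of the 39 HOX genes as log2(FPKM + 1), 1 panel per cluster, by paralogue number, with each of the 3 vector (blue) and 3 MST3 (red) libraries as a point and a dotted line at 1 FPKM. Mean HOXB levels climb from HOXB1 to HOXB7, although HOXB3 and HOXB4 overlap. HOXA9 and HOXC9 are the highest of their clusters, and HOXD8 is the only HOXD gene above the line.

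In the HOXB cluster the mean levels climbed with the paralogue number up to HOXB7. The step from HOXB3 to HOXB4 did not hold in every library, as vector replicate 3 had 2.97 FPKM of HOXB3 and 2.84 FPKM of HOXB4. It also depends on the division by gene length, since HOXB3 had 2131 reads over the 6 libraries and HOXB4 had 1314. HOXB1, a hindbrain gene, had 0 reads in 5 libraries and 2 reads in MST3 replicate 3, and its neighbour HOXB2, also known from the hindbrain, averaged 0.443 FPKM. HOXB3, a gene of pharyngeal arch and hindbrain patterning, averaged 2.79 FPKM, HOXB4, known from blood stem cells, 3.42 FPKM, HOXB5, known from the enteric nervous system, 6.98 FPKM and HOXB6 8.46 FPKM. HOXB7 (chromosome 17, 48607227 to 48633572, minus strand) was the highest HOX gene, at 16.5, 14.2 and 14.7 FPKM with vector and 17.3, 17.4 and 16.3 FPKM with MST3. Its mean of 16.0 FPKM was above 87.1% of protein-coding genes, and its range did not overlap that of HOXB9, the next in order. HOXB8 had 10.7, 13.1 and 11.5 FPKM with vector and 9.97, 11.2 and 12.5 FPKM with MST3. HOXB13, which lies apart from the rest of the cluster and is known as a marker of prostate and distal colon epithelium, had 3.58, 3.62 and 4.46 FPKM with vector and 4.10, 3.84 and 4.86 FPKM with MST3, so the groups overlapped. PRAC1 and PRAC2, the protein-coding genes beside HOXB13 in the table, averaged under 1 FPKM.

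The HOXA cluster had its peak at HOXA9 (chromosome 7, 27162435 to 27175180, minus strand), a gene known for its role in acute leukaemia, with a mean of 10.3 FPKM, the highest level outside HOXB. All 4 posterior HOXA genes were above 1 FPKM. HOXA10 and HOXA11, known from uterus and limb, averaged 4.47 and 1.68 FPKM, and HOXA13, needed in the hindgut and the distal limb, averaged 2.79 FPKM. Among the central members HOXA5, known from lung and gut, averaged 3.59 FPKM, HOXA7 2.28 FPKM, HOXA6 1.32 FPKM and HOXA4 0.496 FPKM. Towards the anterior end HOXA3, of the pharyngeal arches, averaged 0.986 FPKM and HOXA2, of the hindbrain and arches, 0.282 FPKM. HOXA3 was the member nearest the threshold of 1 FPKM from below and HOXC10, at 1.17 FPKM, the nearest from above.

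HOXC genes were lower, and the levels went up and down along the cluster. HOXC9, a gene of the thoracic region, was the highest with a mean of 4.76 FPKM. It was followed by HOXC13, known from hair and nail (1.48 FPKM), HOXC6 (1.20 FPKM) and HOXC10, of the lumbar region (1.17 FPKM). HOXC8 averaged 0.869 FPKM, HOXC4 0.474 FPKM and HOXC5 0.307 FPKM. HOXC11 and HOXC12, which lie between HOXC10 and HOXC13, had 23 and 1 reads over all 6 libraries. Exons of HOXC4, HOXC5 and HOXC6 overlap other rows on the same strand over 17.8, 59.9 and 15.7% of their bases, so the split of reads among them is uncertain.

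HOXD8 (chromosome 2, 176129694 to 176132695, plus strand) stood alone in its cluster. It had 2.88, 2.44 and 2.70 FPKM with vector and 2.24, 2.69 and 2.57 FPKM with MST3, from 700 reads over the 6 libraries, and none of its exon bases are shared with another annotated gene. The other 8 HOXD genes together had 50 reads over the 6 libraries (17 in vector, 33 in MST3), and the highest value of any of them in any library was 0.217 FPKM, for HOXD12 in MST3 replicate 3. HOXD13, a gene of digit formation, had 2 reads, HOXD9 had 3, HOXD4 had 1, HOXD1 had 3, HOXD3 had 10, HOXD11 had 9 and HOXD10 had 15. RefSeq promoter windows (GRCh38.p14, 250 bases before to 50 after the start) matched 20 of the 39 members. The windows of HOXD8 and of HOXD10 are shown because they belong to the expressed gene and a near-silent neighbour of the same cluster, with each CG pair in capitals, 5′ to 3′ on the plus strand, at chr2:176129455-176129754 and chr2:176116528-176116827.
HOXD8: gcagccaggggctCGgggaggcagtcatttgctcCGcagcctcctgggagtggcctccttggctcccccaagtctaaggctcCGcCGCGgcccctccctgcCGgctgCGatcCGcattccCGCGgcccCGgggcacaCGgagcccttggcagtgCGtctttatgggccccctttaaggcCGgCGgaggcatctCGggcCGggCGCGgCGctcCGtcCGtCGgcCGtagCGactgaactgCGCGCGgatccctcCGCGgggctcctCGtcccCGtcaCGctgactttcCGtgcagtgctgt
HOXD10: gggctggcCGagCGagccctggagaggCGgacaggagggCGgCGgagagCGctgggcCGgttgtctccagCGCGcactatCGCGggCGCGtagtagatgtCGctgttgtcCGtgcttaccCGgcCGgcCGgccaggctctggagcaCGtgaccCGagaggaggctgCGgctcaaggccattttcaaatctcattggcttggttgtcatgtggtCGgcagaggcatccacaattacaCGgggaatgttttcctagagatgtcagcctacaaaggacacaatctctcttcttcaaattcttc
The HOXD8 window has 34 CG pairs and 71.7% G and C, and the HOXD10 window has 23 CG pairs and 60.0% G and C, against medians of 14 pairs and 58.7% over all 35116 windows. The letters GGGCGG or their complement CCGCCC were found in the HOXD10 window and not in that of HOXD8, and in 45% of all windows, while TATAAA or TTTATA was found in neither, and in 11.5% of all windows. Over the 18 members with a single window, the 6 members above 1 FPKM had 13 to 44 CG pairs (median 30). The 12 members under 1 FPKM, of which HOXC4 and HOXC5 share 1 window, had 4 to 36 (median 21), so the counts overlapped. The 6 members were HOXA6, HOXA7, HOXA9, HOXA11, HOXA13 and HOXD8. The only HOXB gene with a window was HOXB1, so the expressed HOXB and HOXC genes are not covered.

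Ordered by level, neighbouring members mostly had overlapping ranges. Of the 20 neighbouring pairs among the 21 members, 2 had ranges over the 6 libraries that did not overlap, which were HOXB7 above HOXB9 and HOXA9 above HOXB6. Compared within each library, HOXB6 was also above HOXB5, and HOXB5 above HOXC9, in all 6, although their ranges overlapped. FPKM divides by the length of all annotated exons of a gene, which equals the table's gene length for all 39 members, so a gene whose mRNA in these cells is shorter is understated. Of the 21 members, 15 share exon bases with another annotated gene on either strand. The share was largest for HOXA7, where 62.5% of the bases are also exon of HOXA-AS3 on the opposite strand. HOXB7, HOXB8, HOXB9, HOXB13, HOXA5 and HOXD8 share none. The strand setting of the counting is not given in the sources used here, so reads of a gene and of its antisense partner cannot be told apart.

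With MST3 overexpressed, no HOX gene passed the test against vector. In the limma fit 0 of the 21 tested members had an adjusted p under 0.05, where 0.00767% of all 13036 tested genes did (1 gene, STK24). Also 0 of the 21 had an unadjusted p under 0.05 by limma, where 5.38% of all genes did, and limma voom on the recovered reads gave 0 of the 21 as well, where 6.68% of all genes did. The differences were 9 positive and 12 negative, with 46.6% positive over all genes, and they ran from -0.21 for HOXB9 to 0.27 for HOXA6 on the log2(FPKM + 1) scale. Their median was -0.01, as it was over all tested genes (-0.01), and it was 0.02 without MST3 replicate 1. The 95% interval lay within 1 of 0 for all 21 members and within 0.5 of 0 for 16 of them, against 94.2 and 74.4% of all genes. This scale understates the change of genes near or below 1 FPKM.

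**Figure D2:**
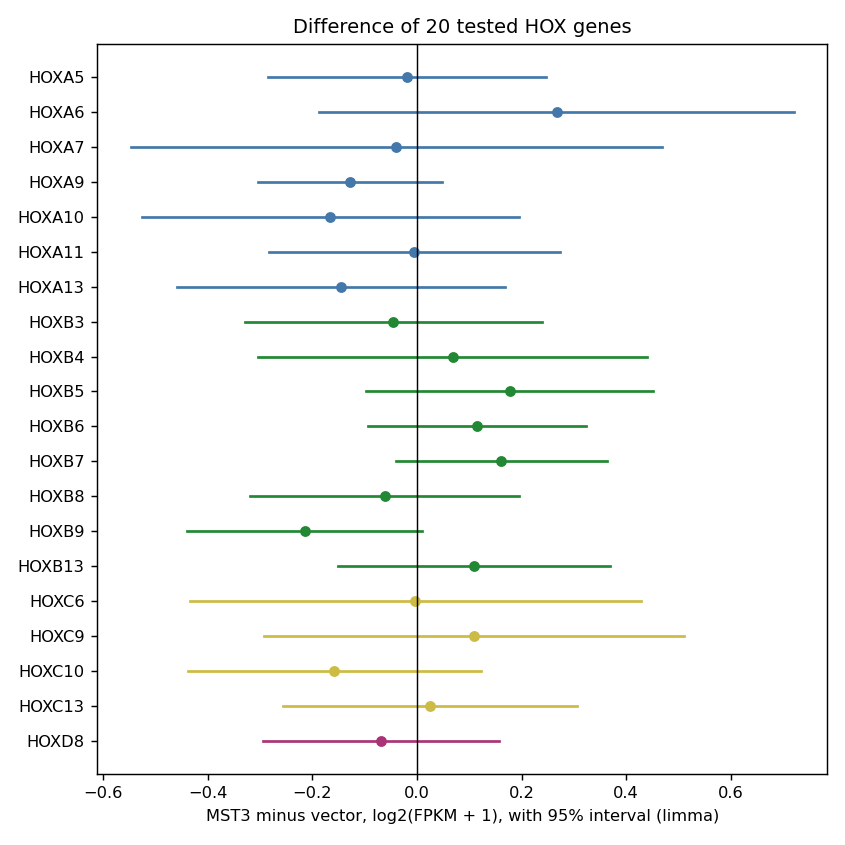
Difference between MST3 and vector libraries for 20 of the 21 tested HOX genes on the log2(FPKM + 1) scale, with limma's 95% interval as a bar, coloured by cluster. Every interval includes 0, and the points run from -0.21 for HOXB9 to 0.27 for HOXA6.

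HOXB9, a member of the posterior group next to HOXB7 and HOXB8, had the smallest unadjusted p of the 21. Its values were 13.1, 13.4 and 11.99 FPKM with vector and 9.98, 12.2 and 10.7 FPKM with MST3. The groups overlapped through MST3 replicate 2, which lay above vector replicate 3. By limma the difference came to -0.21 on the log2 scale (SE 0.10, 95% interval -0.44 to 0.01, adjusted p = 0.719). The unadjusted p by limma was 0.0583, and over 20 alternative settings it ran from 0.0134 (without MST3 replicate 2) to 0.166. In the setting without MST3 replicate 2, 19.5% of all genes were under 0.05. The difference was negative in all 20 settings. With the replicate number as a block the unadjusted p was 0.0439, where 10.3% of all genes were under 0.05.

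HOXA9 had 11.5, 10.8 and 10.3 FPKM with vector and 10.1, 9.81 and 9.63 FPKM with MST3. All 3 MST3 values lay below all 3 vector values (log2 difference -0.13, SE 0.08, 95% interval -0.30 to 0.05, adjusted p = 0.719 by limma). HOXC10 had 1.17, 1.43 and 1.28 FPKM with vector and 0.995, 1.09 and 1.08 FPKM with MST3, again without overlap, from a mean of 46.8 reads per library (log2 difference -0.16, 95% interval -0.44 to 0.12). Among the 21 tested members, 2 had groups that did not overlap with MST3 lower, where 6.70% of all tested genes did, and 0 with MST3 higher, where 5.19% did. Over both directions it was 11.9% of all genes, so 2 of 21 is near the background.

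HOXB7, HOXB6 and HOXB5 lay on the other side of 0. HOXB7 had a log2 difference of 0.16 (95% interval -0.04 to 0.36), and its groups overlapped because vector replicate 1 exceeded MST3 replicate 3. HOXB6 had 8.26, 7.999 and 7.97 FPKM with vector and 9.37, 7.83 and 9.37 FPKM with MST3, where MST3 replicate 2 was the lowest of the 6 (log2 difference 0.11, 95% interval -0.09 to 0.32). HOXB5 had 7.41, 5.86 and 6.20 FPKM with vector and 6.57, 7.33 and 8.52 FPKM with MST3 (log2 difference 0.18, 95% interval -0.10 to 0.45). HOXA6 had the largest positive difference, but it rests on 28.8 reads per library on average. Its values were 1.28, 0.908 and 1.07 FPKM with vector and 2.05, 1.70 and 0.908 FPKM with MST3, so MST3 replicate 3 was as low as vector replicate 2.

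For the other tested HOXA genes described here the groups overlapped. HOXA10 had 5.65, 4.14 and 4.53 FPKM with vector and 3.65, 3.57 and 5.29 FPKM with MST3, and HOXA13 had 2.55, 3.43 and 2.96 against 2.12, 3.12 and 2.58 FPKM. HOXA5 had 3.5996, 3.83 and 3.39 FPKM with vector and 3.23, 3.17 and 4.31 FPKM with MST3. For HOXA10 and HOXA5 MST3 replicates 1 and 2 were the lowest of the 6 libraries and replicate 3 was high. HOXA11 had 1.58, 1.95 and 1.54 FPKM with vector and 1.47, 1.67 and 1.90 FPKM with MST3.

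In HOXB and HOXC the remaining tested members overlapped as well. HOXB3 had 3.24, 2.34 and 2.97 FPKM with vector and 2.96, 2.35 and 2.85 FPKM with MST3, with replicate 2 lowest in both groups. HOXB4 had 3.39, 3.65 and 2.84 FPKM with vector and 4.21, 2.54 and 3.90 FPKM with MST3, whose values lay on both sides of the vector range. HOXC13 had 1.55, 1.35 and 1.47 FPKM with vector and 1.37, 1.35 and 1.78 FPKM with MST3. HOXC6 had 1.78, 0.808 and 1.07 FPKM with vector and 1.19, 1.01 and 1.35 FPKM with MST3, and its vector libraries, at 111, 49 and 66 reads, had the largest spread of any tested member in that group (41.4%).

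By position along the clusters, 3 of 9 tested posterior members (paralogues 9 to 13) had a positive difference, with a median of -0.13, and 5 of 10 central members (paralogues 4 to 8) did, with a median of 0.03, where 46.6% of all tested genes were positive. Only 2 anterior members (paralogues 1 to 3) were tested. The summed FPKM of the posterior members was 45.2, 44.7 and 43.4 with vector and 38.7, 40.7 and 44.9 with MST3, and that of the central members was 59.9, 56.8 and 56.0 against 60.2, 58.4 and 65.8. The anterior members summed to 5.43, 5.65 and 6.14 FPKM against 6.09, 5.83 and 7.03 FPKM. MST3 and vector overlapped in all 3 sums. This grouping was examined after the values were known and carries no test.

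As whole clusters the groups also overlapped. HOXA summed to 30.2 ± 0.5003 FPKM with vector and to 29.3 ± 2.70 FPKM with MST3 (SD, n = 3; ratio 0.970), and HOXB to 64.6 ± 1.81 and 66.6 ± 2.65 FPKM (ratio 1.03). HOXC summed to 10.1 ± 0.227 and 10.6 ± 1.91 FPKM (ratio 1.05), and HOXD to 2.81 ± 0.321 and 2.81 ± 0.253 FPKM (ratio 0.999). For HOXA, HOXB and HOXC the MST3 libraries spread more widely than the vector libraries, and MST3 replicate 3 had the highest sum of all 6, while for HOXD the spread was narrower with MST3. Without MST3 replicate 3 the HOXC ratio was 0.939.

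**Figure D3:**
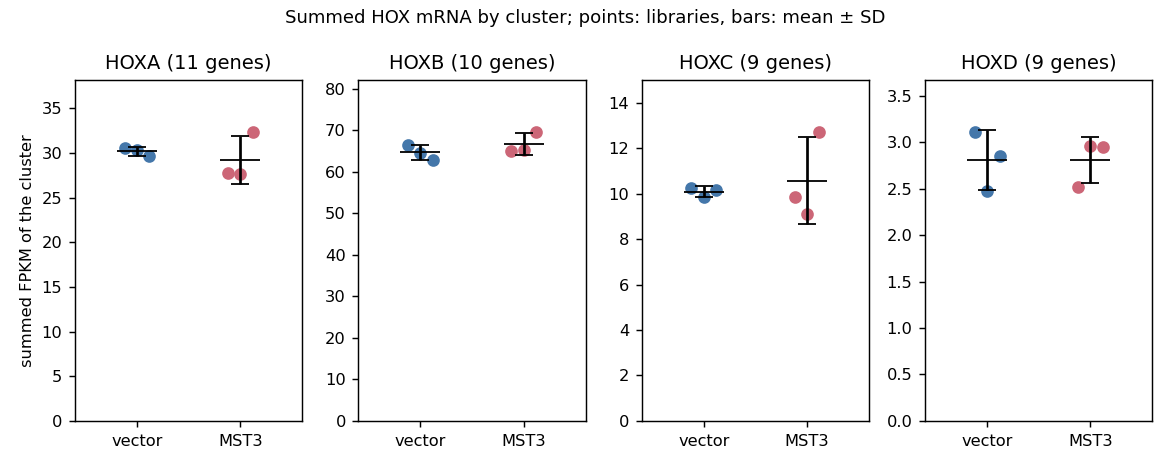
Summed FPKM of each HOX cluster in the 3 vector (blue) and 3 MST3 (red) libraries, with the mean and SD in black and each axis starting at 0. MST3 replicate 3, the rightmost red point, is the highest library for HOXA, HOXB and HOXC.

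Among the MST3 libraries, replicate 3 had the most high HOX values. MST3 replicate 3 had 15 of 21 members above their mean over the 6 libraries, with a median deviation of 0.11 on the log2 scale, where all tested genes had -0.0044. It held the highest of the 3 MST3 values for 11 of 21 members, where it did so for 36.8% of all tested genes. HOXC9 had 6.67 FPKM there, from 192 reads, against 4.82 and 3.63 FPKM in MST3 replicates 1 and 2 and 4.34 to 4.71 FPKM in the vector libraries. HOXA7 had 3.41 FPKM in replicate 3 (141 reads), 2.08 FPKM in replicate 1 (80 reads) and 1.36 FPKM in replicate 2 (57 reads), and 2.10 to 2.57 FPKM in the vector libraries. The coefficient of variation over the MST3 libraries was 45.6% for HOXA7 and 30.4% for HOXC9, where counting alone would give 10.3 and 8.55% at their mean read numbers. For HOXC10 and HOXA11 the spread over the MST3 libraries, 4.76 and 12.8%, was near or below the counting error of 14.6 and 12.3%. A high count of top values was also seen in a vector library. Vector replicate 1 held the highest of the 3 vector values for 10 of 21 members, against 29.1% of all tested genes. It had 13 of 21 members above their mean over the 6 libraries, with a median deviation of 0.0034. The cause of the high values in either library was not tested.

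**Figure D4:**
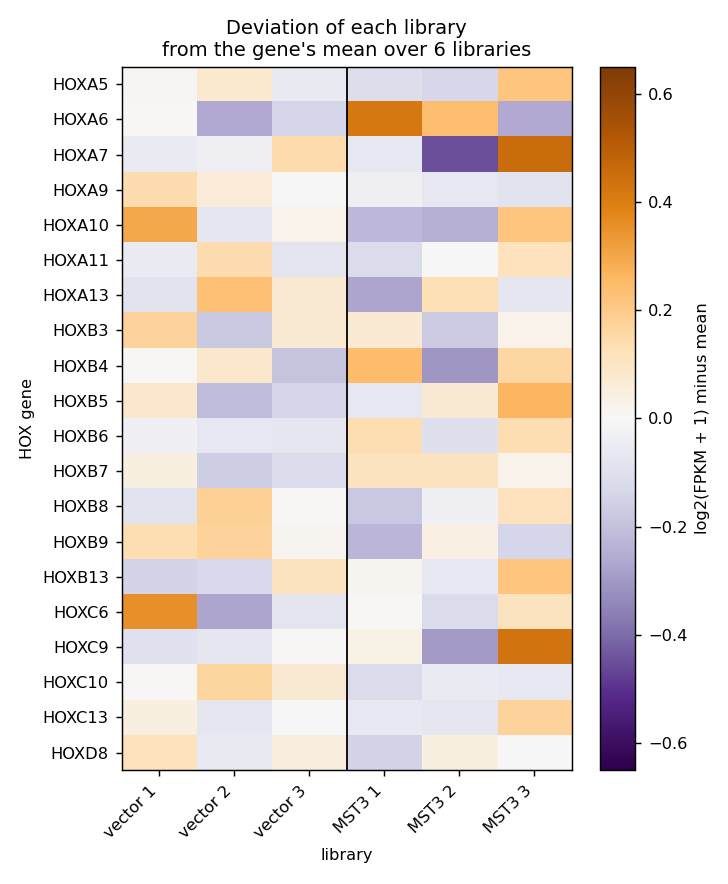
Deviation of each library from the mean over 6 libraries, in log2(FPKM + 1), for 20 of the 21 tested HOX genes (rows) in the 6 libraries (columns, vector left of the line), orange above and purple below the mean. MST3 replicate 3 is above the mean for 14 of the 20 genes drawn, most of all for HOXA7 and HOXC9.

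Of the 18 members below 1 FPKM, 10 had at least 1 library at 0. For HOXB2 and HOXD10 each MST3 value exceeded each vector value. Of the 20845 genes above 0 and below 1 FPKM, 5.43% had MST3 higher without overlap and 7.38% had either direction. HOXB2 had 0.365, 0.350 and 0.343 FPKM with vector and 0.429, 0.493 and 0.674 FPKM with MST3, from 43 and 63 reads per group. HOXD10 rested on 2 reads in the vector group and 13 in the MST3 group, with an adjusted p = 0.781 by limma without a filter (unadjusted 0.0424). For the other 16 members below 1 FPKM the groups overlapped. HOXA3, with 72.7 reads per library, had 0.621, 0.745 and 1.13 FPKM with vector and 0.888, 1.03 and 1.504 FPKM with MST3, and HOXC8, with 28.2 reads per library, had 0.843, 0.988 and 0.789 against 0.664, 0.9752 and 0.957 FPKM. The 11 members under 0.1 FPKM had 1 to 23 reads in all.

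Other annotated genes lie within the clusters, 62 in all, of which 7 reached 1 FPKM and 28 were at 0 in all libraries. HOXB-AS3, which overlaps HOXB3 to HOXB6 on the opposite strand, had 5.47, 4.09 and 5.69 FPKM with vector and 5.67, 3.61 and 6.86 FPKM with MST3. MST3 replicate 2 was the lowest MST3 library for HOXB-AS3, as it was for HOXB3, HOXB4 and HOXB6 but not for HOXB5. HOXB-AS3 shares exon bases with HOXB3, HOXB5 and HOXB6, so some of the same reads may count for both strands. HOXC-AS1, within the HOXC9 gene on the opposite strand with no shared exon bases, had 1.63, 1.38 and 3.39 FPKM with vector and 3.28, 4.28 and 3.75 FPKM with MST3. Vector replicate 3 lay among the MST3 values, and the log2 difference of 0.65 had an adjusted p = 0.719 by limma (unadjusted 0.0221). HOXC-AS1 had 14 to 44 reads per library. No other of the 7 had an unadjusted p under 0.05 by limma, where 5.38% of all tested genes did. HOTAIRM1, a non-coding RNA of the HOXA cluster, averaged 1.73 FPKM, the long non-coding RNA AC103702.2 beyond HOXB9 averaged 7.22 FPKM, and HOXB-AS4 and HOXB-AS2 averaged 1.95 and 1.35 FPKM. HOTAIR, in the near-silent stretch around HOXC11 and HOXC12, was between 0.0964 and 0.336 FPKM in the 6 libraries.

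The clusters also hold microRNA genes of the miR-196 and miR-10 families, and miR-196 is known for cutting HOXB8 mRNA. The MIR196A1 hairpin lies beyond HOXB9, inside the annotated span of HOXB7, which also covers HOXB8 and HOXB9. It shares no exon bases with HOXB7. The hairpin had 1 to 3 reads in the vector libraries and 9, 2 and 3 reads in the MST3 libraries. MIR196A2, MIR196B and MIR10A had 0 reads. These rows are for the hairpin genes, and the table holds no value for the mature microRNAs. The mature sequences from RefSeq (GRCh38.p14) are shown with their seed, bases 2 to 8, in capitals, because 2 members of the family share a seed that recurs in HOX mRNAs.
hsa-miR-196a-5p: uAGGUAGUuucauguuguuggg
hsa-miR-196b-5p: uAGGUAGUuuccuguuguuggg
Beside them stand 4 sites of 22 bases in 3′ untranslated regions of GENCODE 29 transcripts, from HOXB8, with its near-complete match, and from 3 members with a seed match, 5′ to 3′ on the transcript strand, with the bases that face the seed in capitals.
HOXB8: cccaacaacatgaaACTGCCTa
HOXA7: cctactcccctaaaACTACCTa
HOXA9: acaaaaggaaagaaACTACCTt
HOXB7: aacactgaaaaaatACTACCTa
The HOXB8 site (chr17:48612770-48612791, minus strand) pairs with miR-196a over 21 of 22 bases and by a G and U pair at the remaining base, which lies in the seed, so the letters ACTACCT that match the seed are not in it. Without G and U pairs, the site of HOXA7 (chr7:27154430-27154451) has 15 paired bases, that of HOXA9 (chr7:27163254-27163275) has 14 and that of HOXB7 (chr17:48607614-48607635) has 13. These sites are all on the minus strand, and each has 2 G and U pairs besides. Searched on the transcript strand, ACTACCT occurred in the longest annotated 3′ untranslated region of 9 of the 39 HOX genes, or 23.1%, with 4 copies in HOXA7, and in 7.11% of 19126 protein-coding genes. The HOX regions had a median length of 866 bases and all genes of 1082 bases. Such a match is a description of letters and no measure of binding. Of the members with sites shown, HOXB7, HOXB8 and HOXA9 averaged 16.0, 11.5 and 10.3 FPKM and HOXA7, with the most copies, 2.28 FPKM. Of the 9 members with ACTACCT, 7 averaged at least 1 FPKM, where 21 of all 39 members did. Among them HOXB6, HOXB13 and HOXA5 averaged 8.46, 4.08 and 3.59 FPKM. HOXC8 and HOXB1 also hold ACTACCT and averaged 0.869 and 0.00785 FPKM.

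Genes that act with or on the HOX clusters were compared in the same fit, and none passed over all genes. Of the 11 TALE genes 9 were tested, with 4 positive and 5 negative differences and a median of -0.03, which was 1e-04 without MST3 replicate 1. Of the 9, 1 had an unadjusted p under 0.05 by limma. Over all tested genes 46.6% were positive and 5.38% had such a p, which is the background for each list. The TALE gene was PBX3, a DNA-binding partner of HOX proteins, at 3.50, 3.59 and 3.26 FPKM with vector and 2.82, 2.73 and 2.89 FPKM with MST3, without overlap (log2 difference -0.22, adjusted p = 0.719 by limma, unadjusted 0.0233). PBX2 averaged 11.97 ± 0.522 and 14.5 ± 3.18 FPKM, MEIS3 8.10 ± 0.829 and 10.3 ± 2.47 FPKM, and PKNOX1 2.58 ± 0.245 and 2.26 ± 0.323 FPKM (SD, n = 3). MEIS1 was listed at 0 in all libraries.

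In the list of ParaHox and retinoic acid genes, some of which act upstream of HOX genes in development, 11 of 23 were tested. They had 8 positive and 3 negative differences, and 0 had an unadjusted p under 0.05 by limma. Their median was 0.04, and 0.06 without MST3 replicate 1. CDX2, the intestinal ParaHox factor, averaged 3.27 and 3.40 FPKM, and CDX4 was listed at 0. CRABP2, which carries retinoic acid to its receptors, was the highest at 372 ± 15.9 and 411 ± 26.1 FPKM (SD, n = 3). ALDH1A3, which makes retinoic acid, averaged 15.5 and 16.6 FPKM, RXRB, a partner of its receptors, 11.1 and 12.01 FPKM, and DHRS3, which reduces retinal, 22.2 and 21.3 FPKM.

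All 33 Polycomb genes were tested, with 14 positive and 19 negative differences and a median of -0.0155, which was -0.0242 without MST3 replicate 1. CBX7, a chromobox subunit of Polycomb complex PRC1, had 3.36, 2.93 and 3.23 FPKM with vector and 4.17, 3.77 and 4.23 FPKM with MST3, without overlap (log2 difference 0.28, adjusted p = 0.719 by limma, unadjusted 0.0124), and was the only 1 of the 33 with an unadjusted p under 0.05, where 5.38% of all genes had one. RNF2, the ubiquitin ligase of PRC1, averaged 11.6 ± 0.102 and 10.4 ± 0.464 FPKM, and SCMH1 and RYBP had 7.05 and 14.5 FPKM with vector and 6.16 and 12.2 FPKM with MST3. All 31 Trithorax and MLL genes were tested, with 10 positive and 21 negative differences and a median of -0.05, which was -0.01 without MST3 replicate 1. Of the 31, 1 had an unadjusted p under 0.05, against 5.38% of all genes, and this was RBBP5, a core subunit of MLL complexes (14.1 ± 0.898 and 12.1 ± 0.679 FPKM, adjusted p = 0.719 by limma, unadjusted 0.0422). KMT2A, the MLL methyltransferase known to maintain HOX expression, had 6.53, 7.12 and 6.61 FPKM with vector and 5.15, 6.65 and 5.55 FPKM with MST3, where replicate 2 lay among the vector values. NCOA6 and AFF1 averaged 11.1 and 9.66 FPKM with vector and 9.37 and 8.17 FPKM with MST3. For CTCF and cohesin, which shape the loops of the clusters, 11 of 14 differences were negative with a median of -0.11, which was -0.06 without MST3 replicate 1, and 0 had an unadjusted p under 0.05 by limma. STAG2 averaged 15.5 and 13.5 FPKM, SMC1A 19.2 and 17.1 FPKM, WAPL 12.97 and 11.5 FPKM and ESCO1 7.32 and 6.53 FPKM.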

How the data were processed

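The authors deposited 1 table of FPKM values with 1 column per library, 3 vector and 3 MST3. Per the submitters' processing notes, reads were processed with HISAT2. Version, counter, strand setting and annotation: not given in the sources used here. All 58735 entries with Ensembl identifiers have the coordinates of GENCODE 29. Multiplied by gene length, the FPKM of a library came in steps of 1 read for 100% of values (tolerance 0.01), which gave the reads.

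The fit was made on log2(FPKM + 1) in limma 3.58.1 under R 4.3.3 (eBayes with trend, two-sided) for the 13036 genes whose mean reached 1 FPKM, with Benjamini-Hochberg adjustment over all of them and a threshold of 0.05. HOX members were read from that fit. Counts and sums cover all members; values of 1 member are not reported here. Members and lists were chosen with earlier results of these data known. Members with a mean of at least 1 FPKM were named with their values and the others by level, as were up to 4 genes with the smallest p per other list; CDX2, CDX4, MEIS1, PRAC1, PRAC2, HOTAIR and the microRNA hairpins were added after their values were seen. The fit was tested on simulated data. Replicate numbers were not used as pairs, since the labels do not say that they pair cultures. Deviations of same-numbered libraries correlated at 0.0158, 0.226 and 0.035, which does not settle whether they are paired. Alternatives covered pseudocount, filter, scaling, variance model, block, voom and each library left out. Sums and plots were made in Python 3.11.15 (pandas 2.3.3; matplotlib 3.10.9).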

Additional observations from a re-analysis of the deposited data

How the results depend on the processing

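The count of HOX genes past the threshold was 0, and that of all genes 1, in all 20 alternatives, which included the replicate block (0 and 1). The median difference of the tested HOX genes moved by less than the 0.0763 by which the libraries spread, from -0.07 without MST3 replicate 3 to 0.05 without MST3 replicate 2, and was -0.01 with the replicate block. Of the 21 tested members, 12 kept their sign in every alternative that tested them, among them HOXB9, HOXA9, HOXB5, HOXB6 and HOXB7. The other 9 changed sign in at least 1 alternative, none past the threshold, and the cause was not tested. Of these HOXC9, at 0.11, turned only without MST3 replicate 3, and the other 8 lay between -0.06 and 0.07. HOXA11 was 0.003 with equal library sums, 0.0012 with sample weights and 0.032 by voom, HOXA5 was 0.0102 by voom, and HOXC13 was -0.0229 with quantile normalization and -0.0099 with sample weights. HOXC6 was 0.017 and 0.023 with pseudocounts of 0.1 and 0.01, 0.0033 with equal library sums and 0.0535 by voom. With 1 library left out the ranges were -0.0631 to 0.0628 for HOXA11, -0.13 to 0.0422 for HOXA5, -0.28 to 0.17 for HOXA7, -0.14 to 0.0273 for HOXB3, -0.0386 to 0.24 for HOXB4, -0.14 to 0.0128 for HOXB8, -0.0543 to 0.0661 for HOXC13, -0.14 to 0.17 for HOXC6 and -0.079 to 0.28 for HOXC9. Unadjusted p-values under 0.05 numbered 2 among HOX genes without MST3 replicate 2 (19.5% of all genes tested), 2 without MST3 replicate 3 (6.74%), 2 of all 39 members without a filter (4.32%), 1 with sample weights (7.01%) and 1 with the replicate block (10.3%). The 11 members under 0.1 FPKM rest on 1 to 23 reads over all libraries, which limits what can be said of them.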
